A study of Homo sapiens with 6 samples.

Results

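Fatty acid binding proteins, the nuclear receptors PPARG and PPARD, and the fatty acid receptor CD36 were examined in cells that the labels call HSC2, an established line from a human oral squamous cell carcinoma. The set held 9 genes (FABP1, FABP3, FABP4, FABP5, FABP6, FABP7, PPARG, PPARD and CD36), chosen by name, out of 11963 genes named by the arrays. All 9 were measured, by 16 of the 22215 probe sets tested, and every probe set whose only gene symbol was a member was kept. The genes were gathered with earlier values of this same comparison known, FABP4 and FABP6 having stood among the strongest decreases, so the members' differences below are a description and carry no test of their own.

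The samples were 6 single-colour Affymetrix 3′ arrays, 1 per sample. On 3 arrays the cells were described as stable transfectants of full-length wild-type MALT1 cDNA, the paracaspase of the CARD-BCL10-MALT1 signalling complex, and on 3 as transfected with vector alone, called mock. Both kinds of cells were grown in DMEM with fetal bovine serum and penicillin/streptomycin. The sources used here state neither the promoter driving the cDNA nor whether each line is 1 clone, and they do not say that the replicates were separate cultures. The p-values therefore rest on the spread among these 6 arrays alone, possibly a technical one. The comparison addressed which genes respond to MALT1.

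Signals are the deposited intensities, and a signal no higher than 17.6, the top reading on any array of the Bacillus trp controls, is called dim. That reading came from MALT1 replicate 3, and the top trp reading of the other arrays was 6.13 to 14.7. Some signals called dim are therefore above the trp controls of their own array. Differences are arrays labelled MALT1 minus arrays labelled mock on the log2(signal + 1) scale, which understates the change of low signals. Levels of different probe sets are not set against each other, since probes differ in efficiency.

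The labels were checked first, by all 3 MALT1 probe sets. The brightest, 208309_s_at, read 175, 194 and 178 on the arrays labelled MALT1, against 248, 253 and 257 on those labelled mock (log2 difference −0.47 ± 0.08 SE, limma adjusted p = 0.0104). Probe set 210017_at read 128, 124 and 107 on the arrays labelled MALT1, against 282, 242 and 236 on those labelled mock, lower on every array labelled MALT1 (log2 difference −1.08 ± 0.12 SE, limma adjusted p = 0.0022), and 210018_x_at was lower without overlap but did not pass (log2 difference −0.28 ± 0.10 SE, limma adjusted p = 0.0969). These readings ran opposite to the labels, so each group goes by its label below. Whether the probe sets lie within the transfected cDNA was not checked, and those outside it would not read its transcript. All 6 measured squamous epithelium markers (of 9 listed) were lower on the arrays labelled MALT1, with a summed signal of 13932 to 15849 on those arrays, against 35011 to 40198 on the arrays labelled mock, and none was dim in either group. All 10 luminal breast epithelium markers were higher, with a summed signal of 76726 to 85131 on the arrays labelled MALT1, against 8888 to 9633 on those labelled mock, and FOXA1, TFF1, SPDEF and KRT19 were dim on all 3 arrays labelled mock. The part of these lineage marker differences in the results below was not tested. Exchanged labels, cells of another line and an effect of the transfection cannot be told apart with these arrays, which bears on every direction given below.

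Fatty acid binding proteins are small cytosolic carriers that hold long-chain fatty acids and related lipids in a β-barrel and ferry them between membranes, enzymes and the nucleus. PPARs are nuclear receptors that bind fatty acids and their derivatives and act on DNA with an RXR partner. Keratinocytes and squamous carcinomas are known for abundant FABP5 and for PPARD among the PPARs, whereas FABP4 is best known from adipocytes, macrophages and capillary endothelium.

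FABP4, FABP5 and FABP6 were lower on every array labelled MALT1 than on any array labelled mock. PPARG was also lower on every array labelled MALT1 but did not pass and was dim on 4 of the 6 arrays, PPARD was divided between probe sets, and the other members were too dim to read. Of the 16 member probe sets, 3 passed an adjusted p under 0.05 in the fit over all probe sets, all 3 lower, where 35.6% of all 22215 probe sets passed in either direction. The groups did not overlap in 5 of the 16, all 5 lower, against 49.7% of all probe sets. These counts are read no further, because the comparison was known when the members were chosen. Of the 16, 8 were dim on all 6 arrays, 4 were above the dim level on all 6, and the other 4 on some arrays only. Without mock replicate 3, 5 of the 16 passed, where 6487 of all 22215 probe sets passed. The added ones were PPARG, lower, and FABP7 probe set 205030_at, which was higher (log2 difference 2.23) while dim on every array.

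**Figure D1:**
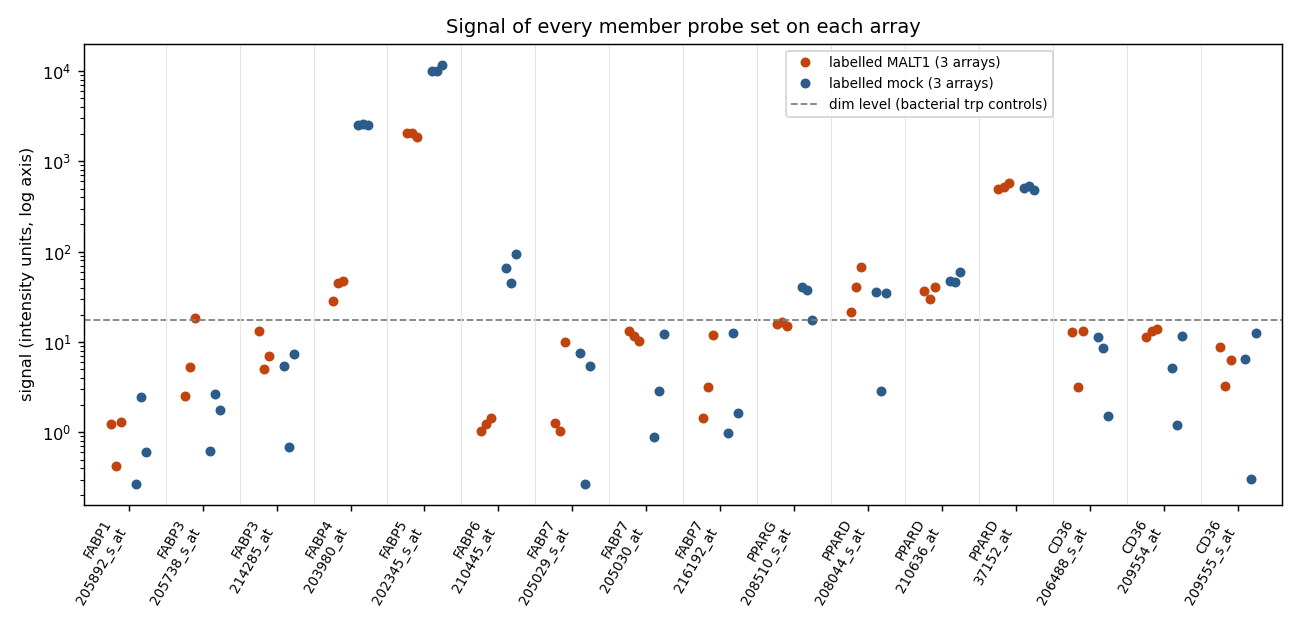
Signal (intensity units, log axis) of all 16 member probe sets on each array, with the 3 arrays labelled MALT1 in orange to the left of the 3 labelled mock in blue, and the dim level of 17.6 as a dashed line. The orange and blue points separate widely for FABP4, FABP5 and FABP6, sit together for PPARD probe set 37152_at, and lie almost wholly under the dashed line for FABP1, FABP3, FABP7 and CD36.

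FABP4, the adipocyte fatty acid carrier, read 28.2, 45.3 and 47.2 on the arrays labelled MALT1, against 2513, 2568 and 2512 on the arrays labelled mock. The 3 mock arrays were nearly identical, and the lowest of them was far above the highest array labelled MALT1. The mean was 40.2 ± 10.5 (labelled MALT1), against 2531 ± 32.1 (labelled mock; SD, n = 3 each), a log2 difference of −5.98 ± 0.22 SE, or 62.9-fold lower on that scale. This was the most negative difference among the 8904 genes with at least 1 array above the dim level in each group. FABP4 was chosen with its decrease known, so this rank reflects that choice and is a description only. Its single probe set stayed above the dim level on all 6 arrays, so the fold is a measured value and not a bound. Its size is limited by signals near the dim level on the arrays labelled MALT1. The log2 difference was −5.52 when 16 in place of 1 was added to each signal. In RNA from whole cultures, fewer expressing cells and less RNA per cell cannot be told apart.

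FABP5, the epidermal carrier, read 2048, 2074 and 1853 on the arrays labelled MALT1, against 10002, 10073 and 11683 on the arrays labelled mock. The groups were well separated, and the signal was high in both. The mean was 1992 ± 121 (labelled MALT1), against 10586 ± 951 (labelled mock; SD, n = 3 each), a log2 difference of −2.41 ± 0.11 SE, or 5.31-fold lower, which ranked 233 from the most negative among the same 8904 genes. Its only probe set is of the s_at kind, which can bind several transcripts, and the gene table lists 15 FABP5 pseudogenes, so part of the signal may come from near-identical copies.

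FABP6, the ileal carrier of bile acids, read 1.02, 1.24 and 1.46 on the arrays labelled MALT1, against 66.1, 45.2 and 94.3 on the arrays labelled mock. It was dim on all 3 arrays labelled MALT1 and above the dim level on all 3 labelled mock (68.5 ± 24.6, SD, n = 3). Measured against the dim level it was at least 3.72-fold lower. The fitted log2 difference of −4.90 ± 0.28 SE rests on signals far below that level, and was −2.25 when 16 in place of 1 was added to each signal.

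FABP1, FABP3 and FABP7, the carriers known from liver, heart muscle and brain, gave almost no signal above the dim level. FABP1 read 1.23, 0.422 and 1.30 on the arrays labelled MALT1, against 0.270, 2.44 and 0.601 on the arrays labelled mock. FABP3 had 2 probe sets, and of its 12 signals only that of 18.5 on MALT1 replicate 3 was above 17.6. FABP7 had 3 probe sets whose 18 signals ran from 0.270 to 13.4, all dim. Probe set 205030_at of FABP7 read 13.4, 11.7 and 10.3 on the arrays labelled MALT1, against 0.896, 2.87 and 12.4 on the arrays labelled mock, and the groups overlapped. No fold is given for these genes.

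PPARD, the widely expressed PPAR of epidermis, differed between its 3 probe sets. Probe set 37152_at read 495, 526 and 580.5 on the arrays labelled MALT1, against 504, 534 and 487 on the arrays labelled mock. These arrays overlapped, with a log2 difference of 0.07 ± 0.10 SE (−0.0602 after median centring) and a 95% confidence interval of −0.19 to 0.32. Probe set 210636_at read 37.1, 29.6 and 41.1 on the arrays labelled MALT1, against 46.8, 45.6 and 60.003 on the arrays labelled mock, lower on every array labelled MALT1 without passing (log2 difference −0.49 ± 0.18 SE, interval −0.94 to −0.04). It passed after quantile normalization, at a log2 difference of −0.70. Probe set 208044_s_at read 21.6, 40.6 and 67.2 on the arrays labelled MALT1, against 35.4, 2.86 and 35.0 on the arrays labelled mock, too scattered to place (interval −1.40 to 3.84).

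PPARG, the master receptor of fat cell differentiation, read 15.97, 16.59 and 14.97 on the arrays labelled MALT1, against 40.99, 37.89 and 17.58 on the arrays labelled mock. All 3 arrays labelled MALT1 were dim, and mock replicate 3 lay just under the dim level, which is 17.64 to 2 decimals, so 2 arrays of the 6 were above it. Against the trp controls of its own array, the signal was under the top reading on MALT1 replicate 3 only. Every array labelled MALT1 was lower than every mock array, but the difference did not pass (log2 difference −0.89 ± 0.34 SE). Without mock replicate 3 it passed, at −1.26. The single probe set is of the s_at kind.

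CD36, the membrane receptor that takes up fatty acids and oxidised lipoproteins, was dim in all 18 signals of its 3 probe sets, which ran from 0.304 to 14.0. Its brightest probe set, 209554_at, read 11.4, 13.2 and 14.0 on the arrays labelled MALT1, against 5.19, 1.22 and 11.6 on the arrays labelled mock. The groups overlapped and no fold is given.

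The promoters of FABP6, which was lower on the arrays labelled MALT1, and of PPARD, whose brightest probe set was level, are shown to set side by side the start regions of 2 members with different readouts. Both come from RefSeq on GRCh38.p14 and run 5′ to 3′ on the gene's strand, 250 bases before to 50 bases after the annotated start. FABP6 lies at chr5:160229256-160229555 on the plus strand and PPARD at chr6:35342308-35342607 on the plus strand. Capitals mark matches to the motifs searched.
FABP6: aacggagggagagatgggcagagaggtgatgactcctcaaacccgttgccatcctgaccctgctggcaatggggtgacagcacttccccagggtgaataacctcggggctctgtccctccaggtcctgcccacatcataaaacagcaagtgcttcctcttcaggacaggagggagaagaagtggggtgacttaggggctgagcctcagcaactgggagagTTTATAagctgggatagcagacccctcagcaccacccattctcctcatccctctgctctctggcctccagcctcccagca
PPARD: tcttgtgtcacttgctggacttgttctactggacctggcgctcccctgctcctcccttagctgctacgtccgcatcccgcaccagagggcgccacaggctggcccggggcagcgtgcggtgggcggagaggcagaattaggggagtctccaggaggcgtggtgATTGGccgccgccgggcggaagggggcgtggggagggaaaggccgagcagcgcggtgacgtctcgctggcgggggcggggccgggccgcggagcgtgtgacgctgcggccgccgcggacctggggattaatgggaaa

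The search covered 6 motifs on both strands: the nuclear receptor half-site AGGTCA, that half-site repeated head to tail with 1 base between (the PPAR-RXR element), the same half-site inverted with 1 base between, the AP-1 site TGANTCA, the TATA box TATAAA and the CCAAT box CCAAT. FABP6 held the TATA box on the opposite strand, starting 30 bases before the start site (position −30), and no other match. PPARD held a CCAAT box on the opposite strand at position −87 and no other match. Neither window held AGGTCA, which occurs in 13.8% of all 35116 promoters of 300 bases in the table. The head-to-tail repeat occurs in 0.0228% of them and the inverted one in 0, the AP-1 site in 7.71%, the TATA box in 11.5% and the CCAAT box in 34.6%. The half-site was present in the window of FABP1, at positions −68 and 11, and in some windows of PPARG, which overlap in part. The table has no entry for FABP4 or FABP5. A match is a description of letters, not of binding.

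Of 10 listed kin of the fatty acid carriers, 3 were measured. CRABP2, which hands retinoic acid to its nuclear receptor, read 613, 639 and 614 on the arrays labelled MALT1, against 44.8, 23.0 and 28.5 on the arrays labelled mock, with wide separation. It rose 19.5-fold (log2 difference 4.29 ± 0.25 SE, limma adjusted p = 0.00026), opposite in direction to FABP5, the carrier reported in cell models to hand the same ligand to PPARD. FABP2, the intestinal carrier, read 7.51, 7.31 and 21.3 on the arrays labelled MALT1, against 0.866, 6.15 and 2.19 on the arrays labelled mock, only MALT1 replicate 3 being above the dim level, and did not pass. PMP2, the myelin carrier of the same family, was dim on all 6 arrays. The other listed kin were not analysed here.

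The receptors and cofactors that work with PPARs mostly did not pass. Of 8 measured, 1 was higher, 1 lower and 6 did not pass (median log2 difference 0.34, or 0 with dim genes set at their bound), where 21.1% of all 11963 genes were called higher and 19.2% lower by their brightest probe set. RXRA, the partner receptor with a signal of 1337, 1423 and 1780 on the arrays labelled MALT1, against 1087, 1174 and 987 on the arrays labelled mock, was higher on every array labelled MALT1 but did not pass (log2 difference 0.48 ± 0.15 SE, limma adjusted p = 0.0589). It passed under 5 of 13 alternatives, quantile normalization among them (limma adjusted p = 0.0473, and 0.0043 to 0.155 over the alternatives). RXRB, another partner receptor, read 177, 231 and 234 on the arrays labelled MALT1, against 347, 245 and 240.0 on the arrays labelled mock, and did not pass. RXRG was above the dim level on 1 array only, MALT1 replicate 3 at 29.9. PPARA, the PPAR of liver, read 23.6, 31.5 and 31.7 on the arrays labelled MALT1, against 44.7, 43.3 and 30.0 on the arrays labelled mock, overlapping and not passing (log2 difference −0.42 ± 0.21 SE). The coactivator NCOA1 rose 2.95-fold (limma adjusted p = 0.0118), with all 4 of its probe sets passing. MED1, the mediator subunit that contacts PPARs, fell by 0.47 on the log2 scale in 1 of its 2 probe sets (limma adjusted p = 0.0471), a call lost under 9 of 13 alternatives (adjusted p from 0.0029 to 0.135).

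Genes for taking up and activating fatty acids included more that rose than that fell. Of 13 measured, 6 were higher (46.2%), 2 lower (15.4%) and 5 did not pass, against 21.1% higher and 19.2% lower over all genes. The median log2 difference was 0.69 against 0.08 over all genes, or 0.69 against 0 with dim genes set at their bound. SLC27A6, a fatty acid transport protein, read 370, 393 and 318 on the arrays labelled MALT1, against 0.695, 4.27 and 1.33 on the arrays labelled mock, dim on all 3 of those and at least 20.3-fold higher (limma adjusted p = 0.00031). SLC27A2, a transporter and very long-chain acyl-CoA synthetase, rose 4.26-fold in its brightest probe set (limma adjusted p = 0.00076), with both of its probe sets passing. DBI, the acyl-CoA binding protein, rose 2.54-fold (limma adjusted p = 0.00033) and passed in all 3 of its probe sets. In the other direction ACSL4, the synthetase that prefers arachidonic acid, read 44.1, 53.8 and 55.4 on the arrays labelled MALT1, against 1066, 865 and 618 on the arrays labelled mock, 16.01-fold lower (log2 difference −4.00 ± 0.23 SE, limma adjusted p = 0.00025). ACSL1, named after its value was seen, was the other lower gene, at 1.25-fold in 1 of its 2 probe sets, and that call was lost under 8 of 13 alternatives.

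Genes of fatty acid oxidation and other PPAR targets also included more that rose than that fell. Of 20 measured, 10 were higher (50%), 1 was lower (5%) and 9 did not pass, against 21.1% higher and 19.2% lower over all genes. The median log2 difference was 0.75, or 0.60 with dim genes set at their bound. UCP2, a mitochondrial carrier, read 1226, 1275 and 1250.2 on the arrays labelled MALT1, against 4.38, 7.54 and 2.38 on the arrays labelled mock, at least 70.9-fold higher (limma adjusted p = 0.00012). The peroxisomal and mitochondrial isomerase ECH1 rose 3.59-fold, CPT1A, which admits fatty acids to mitochondria, rose 2.58-fold, with all 4 of its probe sets passing, and the dehydrogenase HADH rose 2.66-fold, with all 3 passing. Their limma adjusted p-values were 0.00015 for ECH1, 0.00024 for CPT1A and 0.0003 for HADH. EHHADH, the peroxisomal bifunctional enzyme and the only gene of the list to pass as lower, read 87.6, 121 and 52.9 on the arrays labelled MALT1, against 336, 273 and 282 on the arrays labelled mock, 3.55-fold lower (limma adjusted p = 0.00935). ANGPTL4, a widely used PPARD target, read 94.6, 76.9 and 89.4 on the arrays labelled MALT1, against 1.98, 15.3 and 13.8 on the arrays labelled mock, at least 4.91-fold higher (limma adjusted p = 0.0185). That call was lost under 4 of 13 alternatives, with adjusted p-values of up to 0.0612, and PDK4, another such target, was dim on all 6 arrays. EHHADH, ANGPTL4 and PDK4 were named after their values were seen. Without any 1 of the 3 arrays labelled MALT1 the ANGPTL4 call was lost.

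Of 16 lipid droplet and lipolysis genes, 2 were higher (12.5%), 1 was lower (6.25%) and 13 did not pass (81.25%). Over all genes, 21.1% were higher, 19.2% lower and 59.6% did not pass. The median log2 difference of the list was 0.37, or 0.31 with dim genes at their bound. PLIN2, a droplet coat protein and PPAR target, read 135, 120.2 and 120.2 on the arrays labelled MALT1, against 2.30, 6.29 and 5.77 on the arrays labelled mock, at least 7.08-fold higher, in 1 of its 2 probe sets (limma adjusted p = 0.00051). LPIN1, a phosphatidate phosphatase, rose 2.15-fold (limma adjusted p = 0.00101), and LIPA, the lysosomal lipase, was 1.95-fold lower (limma adjusted p = 0.00108). CIDEC, a droplet fusion protein, read 68.6, 54.2 and 72.8 on the arrays labelled MALT1, against 51.0, 41.9 and 38.6 on the arrays labelled mock, and did not pass (limma adjusted p = 0.055), although it passed under 4 of 13 alternatives (0.0294 to 0.148).

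The enzymes that make lipid ligands divided evenly, with 3 of 15 higher (20%), 3 lower (20%) and 9 not passing. These shares were close to those of all genes, at 21.1% higher and 19.2% lower. The median log2 difference was 0.36, or 0.11 with dim genes at their bound. The 3 that fell act in the prostaglandin route. PTGS1, cyclooxygenase 1, read 54.6, 55.0 and 67.9 on the arrays labelled MALT1, against 1310.1, 1372 and 1375 on the arrays labelled mock, 22.6-fold lower, in 2 of its 3 probe sets (limma adjusted p = 5.3e-05). PTGS2, the inducible cyclooxygenase, was 3.30-fold lower (limma adjusted p = 0.00077). PLA2G4A, the phospholipase that frees arachidonic acid, was 5.33-fold lower (limma adjusted p = 0.00343), with 1 of the 3 arrays labelled MALT1 dim at 14.3. CYP2J2, an epoxygenase, read 523, 528 and 500.1 on the arrays labelled MALT1, against 20.9, 35.6 and 20.9 on the arrays labelled mock, 19.9-fold higher (limma adjusted p = 0.0002). The other higher genes, named after their values were seen, were ALOX15, a lipoxygenase, at least 3.02-fold higher (limma adjusted p = 0.00539), and PTGES, a synthase of the same prostaglandin route, 2.13-fold higher in 1 of its 2 probe sets (limma adjusted p = 0.00575). Over the 75 genes of these lists, 23 were higher (30.7%), 8 lower (10.7%) and 44 did not pass (58.7%). The shares over all genes were 21.1%, 19.2% and 59.6%.

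**Figure D2:**
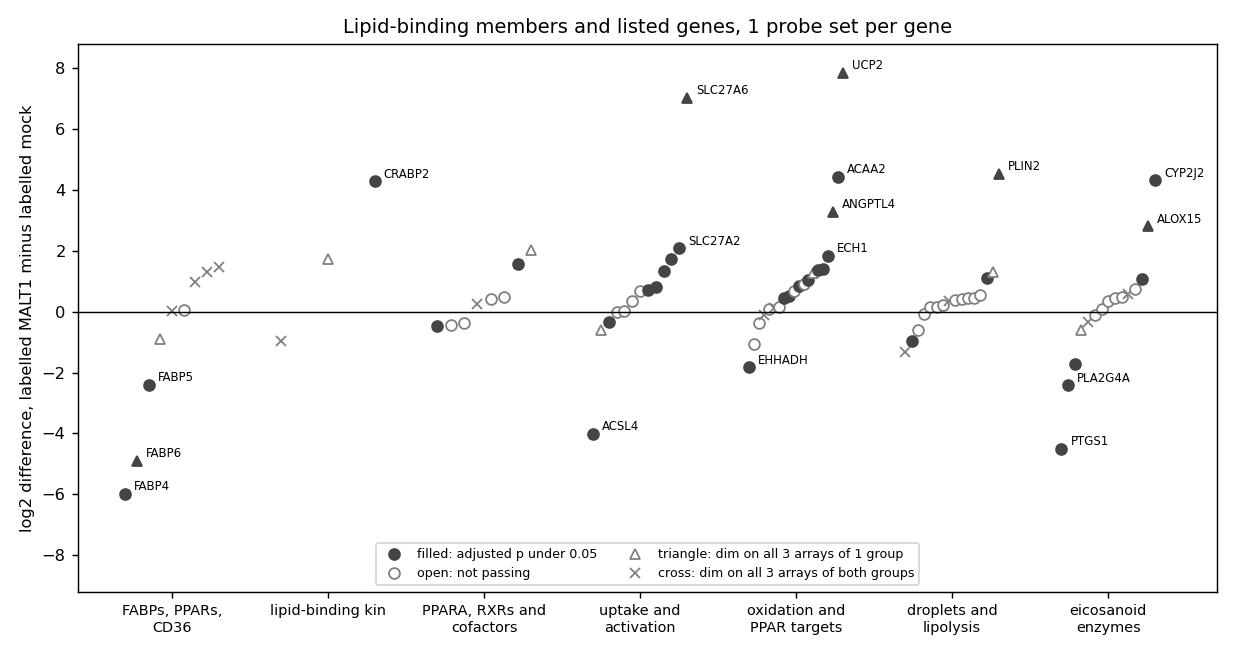
Log2 difference (arrays labelled MALT1 minus arrays labelled mock) of 1 probe set per gene for the 9 members, leftmost, and for the 75 listed genes, with filled symbols passing an adjusted p under 0.05, triangles dim on all 3 arrays of 1 group and crosses dim on all arrays of both. FABP4, FABP6 and FABP5, members chosen with earlier values known, lie far below 0, and the other members did not pass. Of the 20 oxidation genes, 10 (50%) are filled and above 0, where 21.1% of all genes were called higher.

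FABP5, PMP2, FABP9, FABP4 and FABP12 are the only protein-coding genes of one stretch of chromosome 8q21 in the RefSeq gene table, in that order. The next 3 listed genes measured on its far side were also lower. Next after the cluster came IMPA1, inositol monophosphatase, which read 830, 750.1 and 757 on the arrays labelled MALT1, against 2289, 2260 and 2373 on the arrays labelled mock, 2.96-fold lower (limma adjusted p = 0.00021). ZFAND1 and the sorting nexin SNX16, the next measured genes of the list, were 1.75-fold and 2.58-fold lower (limma adjusted p = 0.00176 and 0.00088). E2F5, listed beyond them, did not pass. On the near side, TPD52 did not pass (log2 difference 0.27 ± 0.09 SE), MRPS28, a mitochondrial ribosome subunit, was 1.34-fold lower, a call lost under 5 of 13 alternatives, and HEY1, a Notch target, was 2.35-fold higher (limma adjusted p = 0.00185). STMN2 passed as higher while dim on all arrays, so no fold is given. Of the 9 measured genes listed around FABP4 and FABP5, 2 were higher, of which STMN2 was dim throughout, 4 were lower and 3 did not pass. Over all genes 21.1% were higher and 19.2% lower. The list was set by hand with earlier results of these data known, and it need not hold every gene of the region.

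**Figure D3:**
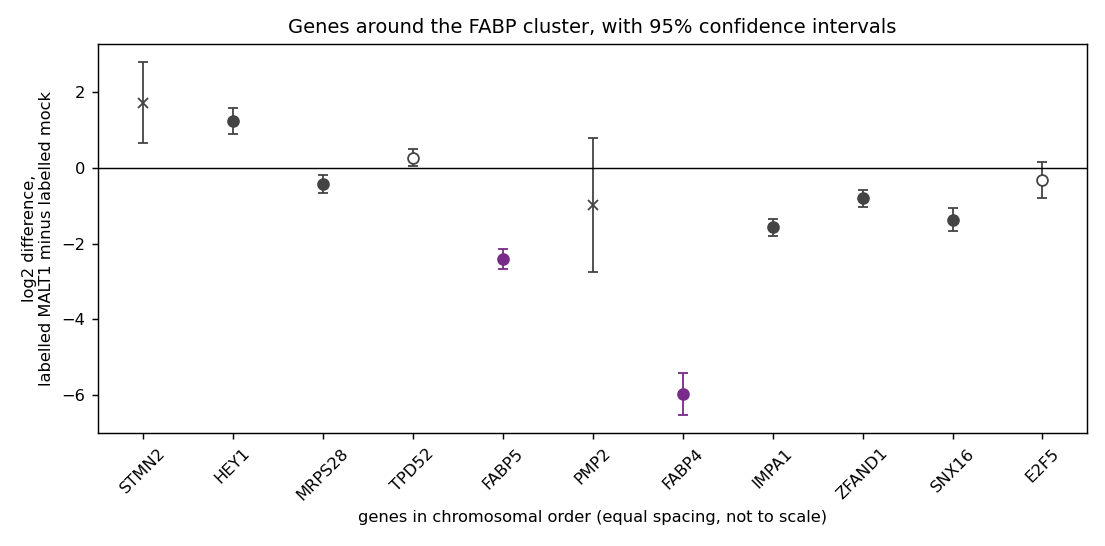
Log2 difference (arrays labelled MALT1 minus arrays labelled mock) with 95% confidence intervals for the measured genes listed around the cluster. They are in chromosomal order, evenly spaced, with FABP5 and FABP4 in purple. Filled circles pass an adjusted p under 0.05 and crosses are dim on all arrays. FABP4, at −5.98, lies well below every neighbour, and IMPA1, ZFAND1 and SNX16 lie between −1.57 and −0.80.

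Markers of adipocytes, macrophages, capillary endothelium and ileal enterocytes, the cell types in which FABP4 and FABP6 are best known, had low signals in both groups, and many were dim. The sum over the 8 adipocyte markers ran between 164 and 208 (labelled MALT1) and between 90.6 and 120.4 on the arrays labelled mock, where FABP4 was high, and ADIPOQ, LEP, LIPE, PCK1 and CFD were dim on all 3 mock arrays. For 7 of 8 macrophage markers it was 78.8 to 111 (labelled MALT1) and 53.3 to 66.6 (labelled mock), with CD14, CD163, MRC1, MARCO and AIF1 dim on all 3 mock arrays. For the 7 capillary endothelium markers it was 66.4 to 106 (labelled MALT1) and 44.0 to 81.7 (labelled mock), with VWF, CDH5, KDR, TIE1 and ERG dim on the mock arrays. For 7 of 8 ileal enterocyte markers it was 39.5 to 73.3 (labelled MALT1) and 27.6 to 54.0 (labelled mock), and 6 of them were dim on the arrays labelled mock, where FABP6 was readable. None of the adipocyte, macrophage, endothelial or enterocyte markers was lower on the arrays labelled MALT1 at an adjusted p under 0.05. Only CIDEC among them was above the dim level on all 3 mock arrays, so the others had little room to read lower. The lack of lower calls is therefore read no further. CFD and CD14 were higher, CFD at least 3.55-fold. CD14 was dim on all 3 mock arrays and read 7.41, 27.1 and 18.2 on the arrays labelled MALT1, so no fold is given. Hepatocyte markers summed to 148 to 218 (labelled MALT1) and 155 to 172 (labelled mock), with 0 of 7 passing. Of 7 heart and skeletal muscle markers, MB and MYH7 were higher, with MB, myoglobin, at 1421, 1505 and 1652 on the arrays labelled MALT1 against 12.3, 11.03 and 16.1 on those labelled mock, and the list's sum was 1695 to 1900 (labelled MALT1) against 290 to 394 (labelled mock). FABP3 was dim on 5 of the 6 arrays by 1 probe set and on all 6 by the other. Of 6 glial and melanocyte markers, PMEL was higher and MBP lower, in a sum of 313 to 370 (labelled MALT1) and 431 to 477 (labelled mock), and FABP7 was dim throughout.

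The genes whose profile over the 6 arrays was closest to each strongly lowered carrier were picked by the distance between log2 profiles centred on their own means, among 8678 genes above the dim level on all arrays of a group. For FABP4 the closest was PSMB8, an immunoproteasome subunit (distance 0.44), followed by CYBRD1 (0.89), HOXD10 (1.25) and CLEC2B (1.46). For FABP6 they were HOXD10 (0.73), TMPRSS11E (0.75), CLEC2B (0.77) and PTGS1 (0.90), and for FABP5 they were ALCAM (0.13), EXT1 (0.13), the basal keratin KRT5 (0.21) and the kinase SGK1 (0.22). ALCAM, a cell adhesion molecule, read 1038, 1030 and 978 on the arrays labelled MALT1, against 5299, 5260 and 5602 on the arrays labelled mock, a log2 difference of −2.41 as for FABP5. With 6 arrays in 2 groups, this distance depends on the size of the group difference. PSMB8, CYBRD1, HOXD10 and TMPRSS11E were dim on all 3 arrays labelled MALT1, as was FABP6 itself, so their size is only a bound, and the distances and order for FABP6, and those for FABP4 to these genes, rest on signals below the dim level.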

How the data were processed

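The deposited values are linear intensity values, 1 per probe set. The software that made them is, for scaling and summary alike, not given in the sources used here. Each array, as its values show, had been scaled to a mean near 500.2 after trimming 2% of probe sets at each end. Groups were taken from the sample titles. After 62 control probe sets were left out of 22277, 22215 were tested as log2(signal + 1) with limma 3.58.1 in R 4.3.3 (lmFit and eBayes, group as the only term, two-sided, Benjamini-Hochberg adjustment over all probe sets), checked on simulated data. In the platform annotation 19064 of these had 1 symbol, 1043 several and 2108 none, and only the first were named. Members and MALT1 are shown by all their probe sets and other genes by the one with the highest mean signal. The dim level came from the trp control probe sets. An "at least" fold is the brighter group's geometric mean over that level. On MALT1 replicate 3, 25.6% of probe sets were dim, and on the other arrays 31.7% to 33.3%. That array also had the highest median signal, 79.0 against 64.1 to 70.6 on the others. The number of arrays limits the precision.

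The members and lists were chosen with earlier results of these data known. Named are all members, up to 4 genes per list with the smallest adjusted p, FABP2, CRABP2, PPARA, the RXR genes and MALT1. Also named are every measured gene of the 8q21 list and the 4 nearest profiles of up to 3 members. Alternatives were median centring, quantile normalization, a pseudocount of 16, leaving out probe sets above the dim level on fewer than 3 arrays, a mean-variance trend, the replicate number as a block, the mean of a gene's probe sets, and leaving out each array. Set tests were not run.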

Additional observations from a re-analysis of the deposited data

How the results depend on the processing

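FABP4, FABP5 and FABP6 were lower and passed under all 12 alternative fits of their probe sets. Between 5808 and 9030 of the probe sets tested passed in these fits. Passing by members is a description here and not a test. The members were chosen with earlier values of this comparison known, and the alternatives reuse the same arrays. The log2 difference of FABP4 was −6.11 to −5.74 when 1 array was left out and −5.52 with a pseudocount of 16. That of FABP6 was −5.16 to −4.64 with 1 array left out and −2.25 with a pseudocount of 16. That of FABP5 was −2.45 to −2.33 with 1 array left out and −2.54 after median centring, which moves every difference by −0.13. The log2 difference of the brightest PPARD probe set was 0.01 to 0.12 with 1 array left out and −0.0602 after median centring, and that of the mean of the PPARD probe sets was 0.27. The cause of the disagreement between PPARD probe sets was not tested. The count of member probe sets that passed was 3 to 5 with 1 array left out, and 5 only without mock replicate 3. Over all probe sets 7917 passed (52.2% higher), 5808 with the replicate number as a block, and 6165 to 7330 with 1 array left out; the share higher was 43.1% after median centring. No label says that the replicate numbers pair samples, so they were not taken to do so. Same-numbered arrays deviated together hardly at all (correlations 0.04, 0.01 and 0.05), and differently numbered ones ran from −0.062 to 0.035. Under the replicate block the same 3 member probe sets passed. The listed genes that passed numbered 31, and 27 to 39 over the alternatives. By list, the higher and lower counts ran over 5 to 7 and 1 to 2 for uptake, 8 to 11 and 1 to 2 for oxidation, 2 to 4 and 1 to 2 for droplets, 1 to 4 and 0 to 1 for receptors, and stayed at 3 and 3 for eicosanoid enzymes. Signal near the dim level limits FABP1, FABP3, FABP6, FABP7, PPARG and CD36, and the size of the FABP4 fold.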
